A study of Mus musculus with 6 samples.

Results

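The miR-34 and miR-449 miRNAs were followed in exosomes of HN9.10e cells, an immortalised line of mouse embryonic hippocampal neurons. Members were found by name: the rows of the miRNA count table whose Ensembl identifier carries the GENCODE M21 name Mir34a, Mir34b, Mir34c or Mir449a, which gave 4 of 1973 rows. The study compared exosomes collected from the medium of untreated control cells with exosomes of cells given 100 nM ceramide (C6-ceramide in the study's methods), isolated at 48 h. Small RNA was sequenced in 3 control and 3 ceramide libraries, and cells of both groups were of the genotype WT and grew in medium with fetal bovine serum. The libraries held between 800810 (ceramide replicate 1) and 2760015 (ceramide replicate 2) assigned counts. The study calls the libraries biological replicates, the labels name no separate cultures, and the p-values measure the spread between these libraries. All values come from a single cell line and a single dose and time.

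The miR-34 genes are direct transcriptional targets of the tumour suppressor p53, and their miRNAs repress mRNAs of the cell cycle and of survival, such as those of Cdk6, Ccne2, Met and Bcl2. miR-34a has its own gene and is widely expressed, with high levels in brain, whereas miR-34b and miR-34c are cut from one shared transcript. The miR-449 miRNAs come from an intron of Cdc20b, and together with miR-34b/c they are best known from multiciliated cells and male germ cells, where they act redundantly.

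What joins the family is the seed, bases 2 to 8 of the mature miRNA, which pairs with the target mRNA. The mature miRNAs of the 5′ arm are shown first because their seed defines the family, with the seed in capitals. They were copied 5′ to 3′ from RefSeq (build GRCm38.p6), where 9 mature miRNAs of these hairpins and of Mir449c were found. miR-34c-5p and the miRNAs of miR-449b had no entry there, so they are named only.
miR-34a-5p: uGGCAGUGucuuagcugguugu
miR-34b-5p: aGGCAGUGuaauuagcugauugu
miR-449a-5p: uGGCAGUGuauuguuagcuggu
miR-449c-5p: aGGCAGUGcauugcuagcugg

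With miR-34c-5p and miR-449b missing from that table and so not searched, these 4 were the only ones among its 1738 mature miRNAs with the seed GGCAGUG. Outside the seed they differed: in a global alignment miR-34a-5p and miR-34b-5p shared 19 of 23 aligned positions, miR-449a-5p and miR-449c-5p shared 18 of 22, and miR-34a-5p and miR-449a-5p shared 17 of 23.

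The 3′ arms are shown because they divide the family in another way, again with bases 2 to 8 in capitals.
miR-34a-3p: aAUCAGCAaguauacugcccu
miR-34b-3p: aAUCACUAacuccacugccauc
miR-34c-3p: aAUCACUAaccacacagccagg
miR-449a-3p: cAGCUAACaugcgacugcucuc

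The 3′ seed AUCACUA was held by miR-34b-3p and miR-34c-3p and by no other mature miRNA of the table, and these miRNAs matched at 17 of 22 aligned positions. The 3′ seeds of miR-34a and miR-449a were each held by 1 miRNA. One row of the count table adds up the 5p and 3p reads of a hairpin, so the arms could not be told apart in the values that follow. No family hairpin shared a stretch of 18 bases with the hairpin of any other row, and no other row held counts within 5% of a member's in all 6 libraries.

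In GRCm38 the Mir34a hairpin (ENSMUSG00000065493) lies on chromosome 4 from 150068454 to 150068555, plus strand, inside an exon of Gm37795 on the same strand, a gene of GENCODE's biotype TEC. Mir34b (ENSMUSG00000065492) lies on chromosome 9 from 51103562 to 51103645 and Mir34c (ENSMUSG00000065587) from 51103034 to 51103110, both on the minus strand. They are 451 bases apart and overlap an intron of Btg4, which runs on the opposite strand. Mir449a (ENSMUSG00000065575) lies on chromosome 13 from 113037534 to 113037624, plus strand, in an intron of Cdc20b on the same strand. The gap between Mir449b and Mir449a is 35 bases, and Mir449c lies further upstream, with 1442 bases between Mir449c and Mir449a.

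**Figure D1:**
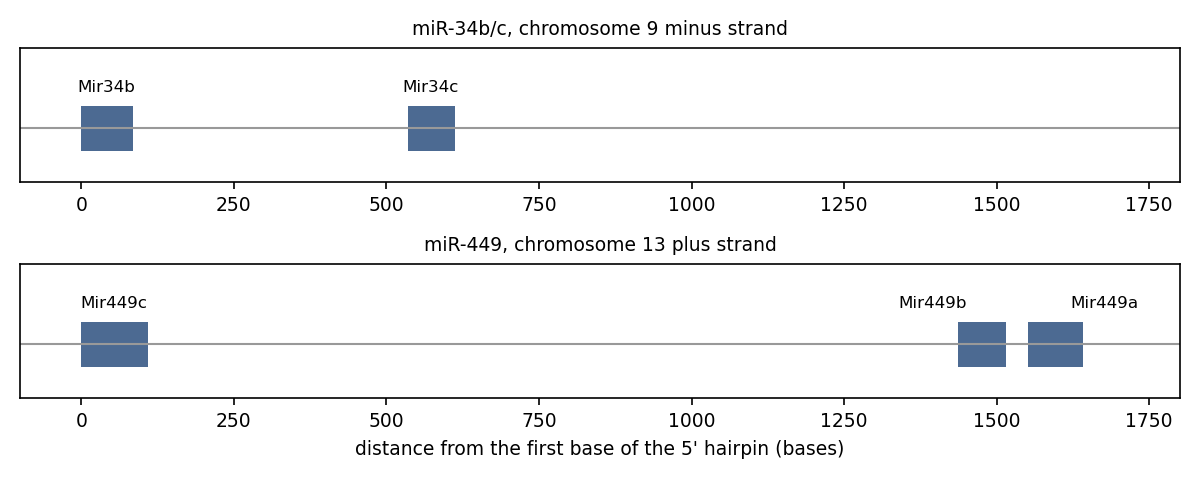
Map of the hairpins of the miR-34b/c and miR-449 clusters in the direction of transcription, with the distance in bases from the first hairpin base on the horizontal axis. Boxes are hairpins to scale: 451 bases separate Mir34b from Mir34c, and Mir449b and Mir449a are 35 bases apart.

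All 4 members had counts in every library. Levels are given as normalised CPM (counts per 1000000, after scaling of the libraries with edgeR's TMM factors). A read covers a whole mature miRNA, so no scaling by length was applied, and how well each miRNA is captured was not measured. Among the 1973 rows ordered by counts over the 6 libraries, Mir34c was in place 60 with 29082 counts, Mir34a in place 112 with 8415, Mir34b in place 116 with 7434 and Mir449a in place 174 with 2364. In control exosomes Mir34c stood at 3830 ± 365 CPM, Mir34b at 1055 ± 9.23, Mir34a at 961 ± 47.5 and Mir449a at 274 ± 19.6 CPM (SD, n = 3 each). Mir34b and Mir34a were close neighbours in this order: their control ranges, 1044 to 1063 and 925 to 1015 CPM, lay side by side without overlap. In ceramide exosomes their order was the reverse, with Mir34a at 873 ± 125 CPM and Mir34b at 607 ± 34.9 CPM (SD, n = 3 each).

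Together the 4 rows took 0.671, 0.623 and 0.590% of all counts in control replicates 1, 2 and 3, and 0.427, 0.406 and 0.413% in the ceramide libraries. The family share was thus lower in each ceramide library than in any control library. The make-up of the sum also differed: Mir34b supplied 16.2 to 18.7% of it in control and 13.4 to 15.2% in ceramide libraries, and Mir34a 15.3 to 16.3% and 18.4 to 22.7%. In bulk exosomal RNA, fewer vesicles that carry a miRNA and fewer copies per vesicle cannot be told apart.

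The effect of ceramide on each row was tested with edgeR's quasi-likelihood test over the 418 rows that passed its expression filter, among them all 4 members. A row was called where its adjusted p did not exceed 0.05 and its log2 fold change was 0.6 or more in either direction. Of the 4 members 1 was called, Mir34b, and it was lower with ceramide. Over all tested rows 11.5% were called, 8.37% lower and 3.11% higher, so 1 of 4 is a count too small to set against that share. These shares are of the fit with condition alone. With the replicate number as a block 87 of the 418 rows were called, and of the members again only Mir34b. In the fit with condition alone, the adjusted p alone was passed by 2 members, Mir34b and Mir34c, against 19.9% of all rows. The same pair were the members whose ceramide libraries all lay below their control libraries, which held for 25.1% of all rows. Mir34a and Mir449a did not pass on either criterion. The median log2 fold change was -0.37 over the 4 members and -0.01 over all tested rows.

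Mir34b, the less abundant hairpin of the shared transcript, was at 1057, 1044 and 1063 CPM in control replicates 1, 2 and 3 and at 625, 567 and 629 CPM in ceramide replicates 1, 2 and 3. The controls were nearly alike and the groups lay far apart, with no overlap. Mir34b fell with ceramide to 57.5% of its control mean, a log2 fold change of -0.80 (SE 0.09, interval -1.003 to -0.593 at 95%, adjusted p = 0.0026, edgeR). By p, Mir34b was sixth of all tested rows (place 6), and by fold change place 19 from the lowest. Within replicate numbers the ceramide library stood at 59.1, 54.2 and 59.2% of its control.

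Mir34c, the abundant hairpin of the same transcript, was at 4148, 3911 and 3431 CPM in control and at 2492, 2599 and 2536 CPM in ceramide replicates 1, 2 and 3. All ceramide libraries were below all controls, and here the controls were the more spread group. The ceramide mean was 66.4% of the control mean, a log2 fold change of -0.59 (SE 0.09, interval -0.81 to -0.37 at 95%, adjusted p = 0.0053, edgeR). Mir34c passed on p and missed the fold threshold of 0.6 by a small margin. It was called without control replicate 3 (-0.66) and without ceramide replicate 2 (-0.62), and also when the counts of Mir34b and Mir34c were added up as a single row (-0.60, adjusted p = 0.0044, edgeR). Per replicate number the ceramide library held 60.1, 66.4 and 73.9% of its control.

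Mir34a, the p53 target with its own gene, was at 1015, 944 and 925 CPM in control and at 1007, 851 and 760 CPM in ceramide replicates 1, 2 and 3. Ceramide replicate 1 lay inside the control range and the other ceramide libraries below it. The ceramide mean was 90.8% of the control mean. The log2 fold change was -0.14 (SE 0.12, interval -0.43 to 0.15 at 95%, adjusted p = 0.42, edgeR). The fold changes of Mir34b and Mir34c both lay outside this interval, but the interval of Mir34c (-0.81 to -0.37) overlapped it. Such intervals do not test a difference between rows. Per replicate number the ceramide library held 99.2, 90.2 and 82.2% of its control.

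Mir449a, the hairpin in Cdc20b, was at 294, 272 and 255 CPM in control and at 317, 226 and 211 CPM in ceramide replicates 1, 2 and 3. Its ceramide replicate 1 was the highest of all libraries, and the other ceramide libraries were below all controls, so the groups overlapped. The log2 fold change was -0.14 (SE 0.17, interval -0.54 to 0.27 at 95%, adjusted p = 0.58, edgeR). The values of both rows moved with single libraries. Without ceramide replicate 1, the shallowest library, the log2 fold changes were -0.34 for Mir449a (adjusted p = 0.068) and -0.27 for Mir34a (adjusted p = 0.10, both edgeR). Without ceramide replicate 3 they were -0.02 for Mir449a (adjusted p = 0.95) and -0.05 for Mir34a (adjusted p = 0.81, both edgeR), and without ceramide replicate 2 that of Mir449a was -0.07. Without control replicate 1 that of Mir449a was -0.09. Neither row was called in any of these fits. Per replicate number the ceramide library held 107.7, 83.2 and 82.5% of its control for Mir449a.

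**Figure D2:**
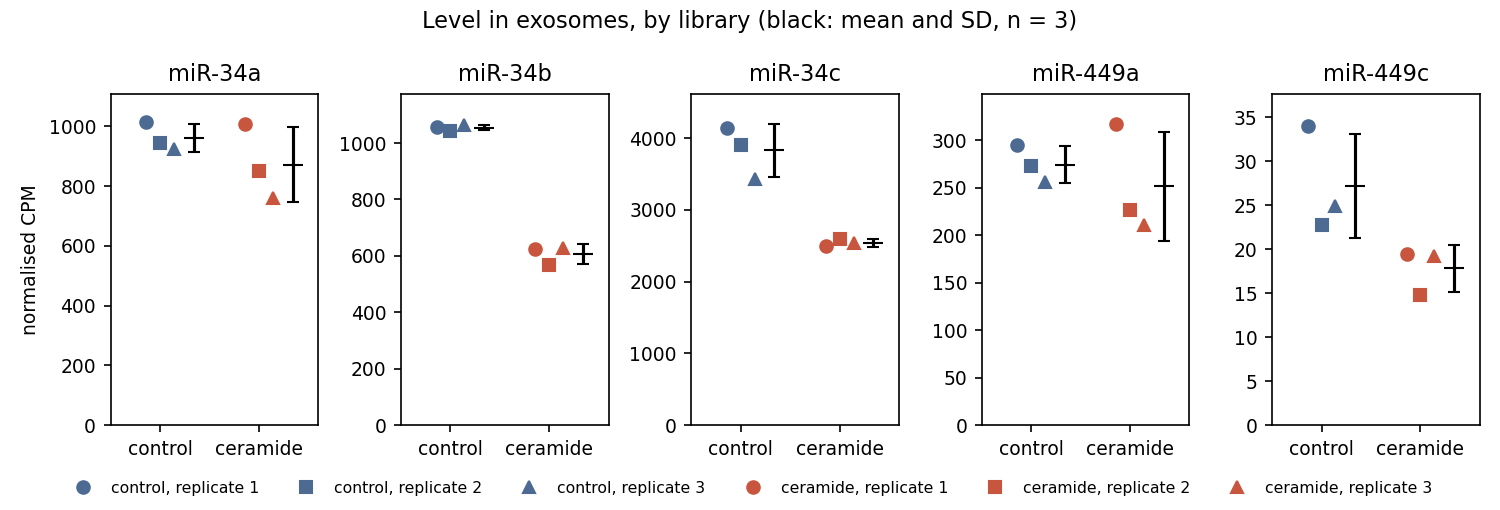
Normalised CPM of the 4 members and of miR-449c in each of the 6 libraries, with the mean and SD of each group (n = 3) in black. The ceramide libraries of miR-34b (567 to 629 CPM) and miR-34c (2492 to 2599 CPM) all sit below their controls, whereas those of miR-34a and miR-449a overlap with them.

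The miR-449 cluster has further hairpins. Mir449c (ENSMUSG00000076146) held 34, 32 and 34 counts in control and 15, 39 and 45 counts in ceramide replicates 1, 2 and 3, that is 33.9, 22.8 and 24.9 CPM against 19.5, 14.8 and 19.2 CPM. The ceramide libraries were below the controls in CPM, by a small distance set against the counting error of such low counts. The log2 fold change was -0.62 (SE 0.22, adjusted p = 0.091, edgeR), which was not called. With the replicate number as a block the adjusted p was 0.021 (edgeR) at a log2 fold change of -0.56, under the fold threshold. Mir449b (ENSMUSG00000078027) had 0 counts in all 6 libraries; 3 counts, the limit that a count of 0 allows, would be 1.09 counts per 1000000 in the deepest library and 3.75 in the shallowest, before TMM scaling, for counting error only.

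**Figure D3:**
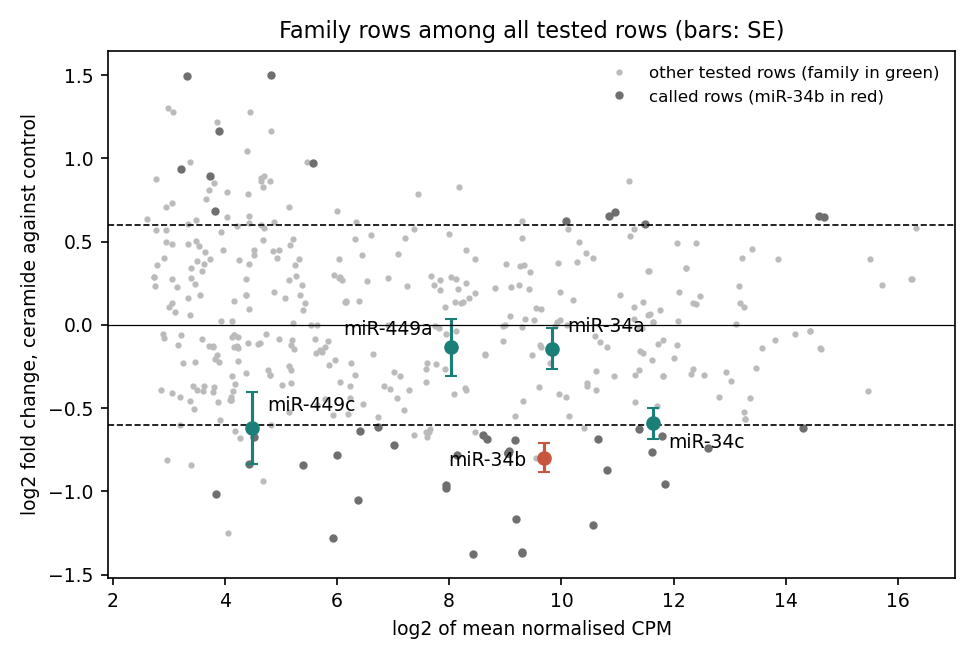
Log2 fold change of each tested row (418 points) against the log2 of its mean normalised CPM; dashed lines mark the fold threshold of 0.6, family rows are drawn with their SE, and miR-34b, the called one, is red. miR-34b (-0.80) lies past the lower line, miR-34c (-0.59) and miR-449c (-0.62) lie near it, and miR-34a and miR-449a (both -0.14) lie close to zero.

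Whether members of the family changed unequally was asked with ratios of counts inside each library, which do not depend on scaling between libraries. Ratios were formed for all 10 pairs of the 4 members and Mir449c, and each was compared between groups on the log2 scale with a two-sided exact permutation test, in which 3 libraries against 3 cannot give a p under 0.1. With the replicate numbers kept as pairs, an exact sign-flip test (an alternative chosen after seeing the data) cannot give a p under 0.25. The ratio of Mir34b to Mir34a was 1.04, 1.11 and 1.15 in control and 0.621, 0.666 and 0.827 in ceramide replicates 1, 2 and 3. Every ceramide value was below every control value, and the mean log2 ratio was lower by 0.65 (exact permutation p = 0.1, adjusted p = 0.2 over the 10 ratios). The ratio of Mir34c to Mir34a was 4.09, 4.15 and 3.71 in control and 2.47, 3.05 and 3.34 in ceramide libraries, again without overlap (exact permutation p = 0.1, adjusted p = 0.2). Both hairpins of the shared transcript were therefore lower relative to Mir34a in each ceramide library than in any control library, at the smallest p of the unpaired test, which does not pass 0.05. With pairs kept, both had the smallest p of that test as well (exact sign-flip p = 0.25, adjusted p = 0.36 over the 10 ratios).

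The ratio between the remaining members, Mir449a and Mir34a, showed no separation of the groups. The ratio of Mir449a to Mir34a was 0.290, 0.289 and 0.276 in control and 0.315, 0.266 and 0.277 in ceramide replicates 1, 2 and 3, and the ceramide values reached past both ends of the control range (exact permutation p = 0.9, adjusted p = 0.9). Inside the shared transcript, the ratio of Mir34c to Mir34b was 3.93, 3.74 and 3.23 in control and 3.99, 4.59 and 4.03 in ceramide libraries. Ceramide libraries were higher without overlap, by 0.21 on the log2 scale (exact permutation p = 0.1, adjusted p = 0.2), although control replicate 1 and ceramide replicate 1 were nearly alike. The ratios of Mir449a to Mir34b and to Mir34c were also higher without overlap, by 0.65 and 0.44 (exact permutation p = 0.1, adjusted p = 0.2 each). Every ratio of Mir449c overlapped between the groups.

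**Figure D4:**
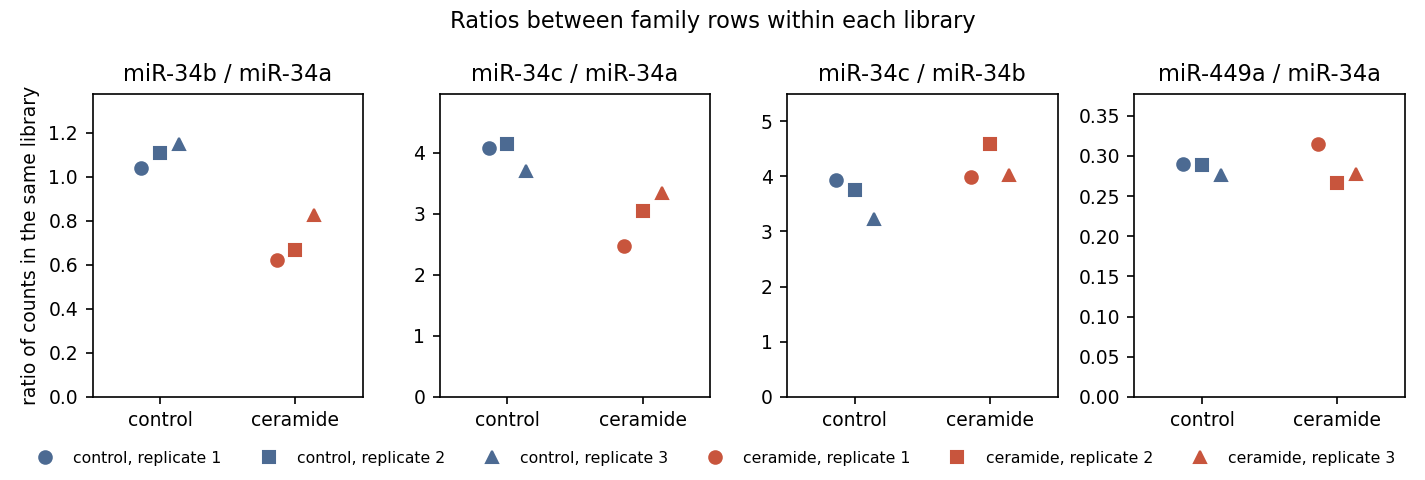
Ratio of the counts of 2 family rows in the same library, by group, with 1 point per library and the vertical axes starting at 0. The ratios of miR-34b and miR-34c to miR-34a are lower in all 3 ceramide libraries than in the controls, and that of miR-449a to miR-34a overlaps between groups.

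The call of Mir34b and the absence of a call for Mir34a and Mir449a did not hang on the processing settings tried. Mir34b was called in 16 of 16 alternatives and Mir34c in 7 of 16, while Mir34a and Mir449a were called in 0 of 15 each. For Mir34b and Mir34c, 1 of the 16 is the same fit, of both rows added up. In it Mir34c held most of the counts (29082 against 7434 of Mir34b), so it is not a separate call of Mir34b. The fold change of Mir34b was nearest to the threshold when it was added to Mir34c, at -0.60, and otherwise lay between -0.88 and -0.72. In the labels, control replicate 1 and ceramide replicate 1 carry lane number 1, the other control libraries lane 4 and the other ceramide libraries lane 2. The labels do not name the run, so an equal lane number need not mean a shared lane. Outside lane 1, lane number and treatment cannot be told apart. With the lane as a term the effect rests on control replicate 1 against ceramide replicate 1 alone, so only effect sizes are given here. The log2 fold changes were -0.76 for Mir34b, -0.74 for Mir34c, -0.01 for Mir34a and 0.11 for Mir449a. They repeat the ratios of that pair of libraries and are not a separate check of the calls.

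**Figure D5:**
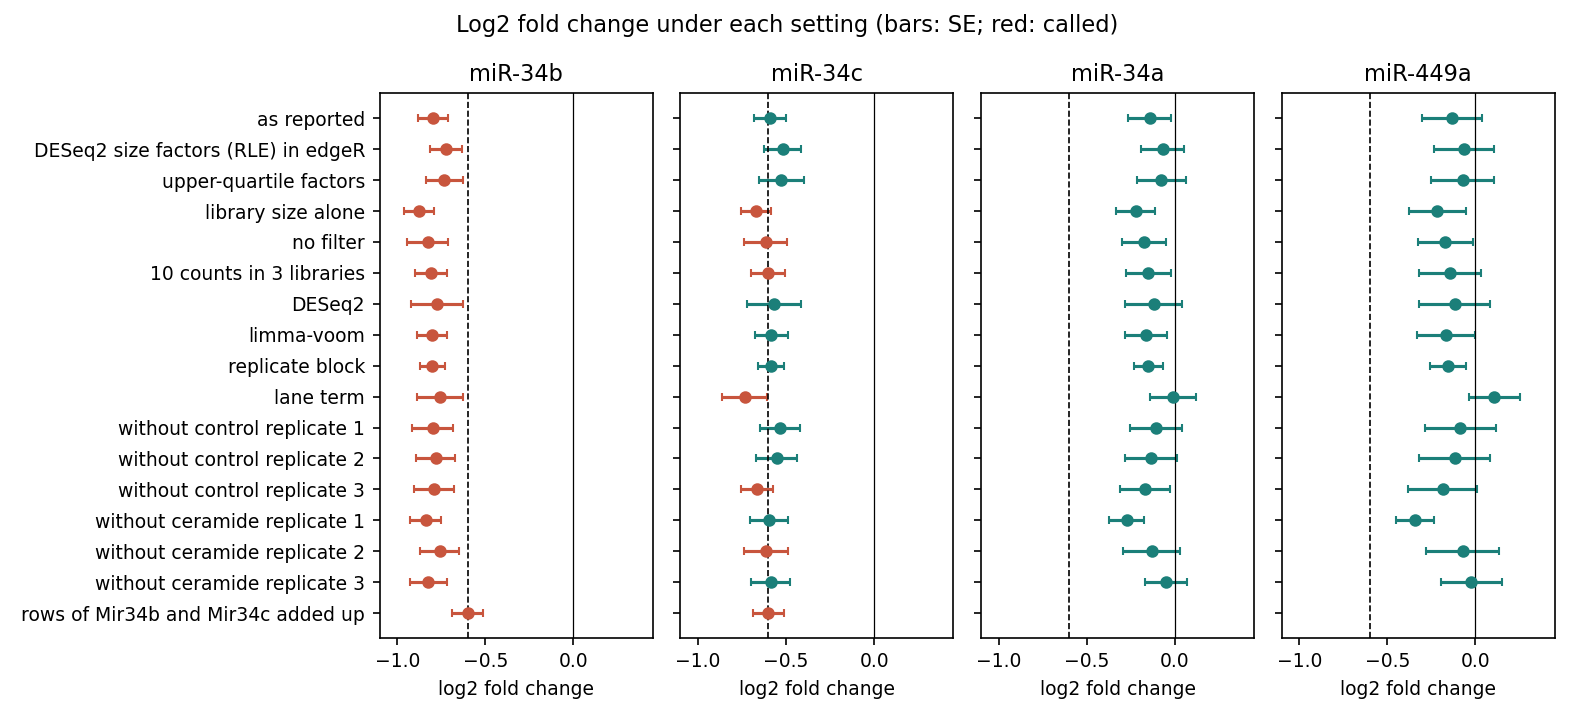
Log2 fold change of miR-34b, miR-34c, miR-34a and miR-449a (with SE) as reported and under each alternative setting; the dashed line is the fold threshold, and red points are called. miR-34b is red throughout, miR-34c lies on both sides of the line, and miR-34a and miR-449a are called nowhere.

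The tested rows with the profile most like that of each member were found by the root mean square difference of centred log2 CPM over the 6 libraries, a description with no test. For Mir34b they were Mir344d-1, Gm23962 and Gm23490 (0.06, 0.06 and 0.07) against a median of 0.43 over all rows. The study labels both Gm rows as miR-344, and Mir344d-1 and Gm23490 held 4697 and 4694 counts. These rows need not be separate neighbours. For Mir34c they were Mir465c-1 and Mir465c-2, whose counts were identical, and Gm25301, all at 0.06 against a median of 0.36. Mir34c stood in place 21 among the rows nearest to Mir34b, at 0.15. For Mir34a they were Mir101a (0.04), Mir23b (0.05) and Mir29c (0.05), and for Mir449a Mir101a (0.07), Mir450-1 (0.08) and Mir34a (0.08). Mir34a was thus among the 3 rows nearest to Mir449a, whereas Mir34b was in place 266 and Mir34c in place 196 for that row.

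Other miRNAs linked to p53 were read from the same fit. Of 17 miRNAs listed as raised by p53 or by its action on miRNA processing, 16 had a row and 11 were tested; 1 was called lower, none higher and 10 were not called. The share called was near that of all rows, 11.5%. The called one was Mir22, a miRNA that represses the cell cycle inhibitor p21, which fell from 1989 to 1241 CPM, a log2 fold change of -0.68 (SE 0.13, adjusted p = 0.012, edgeR). The most abundant of the list were Mir16-1 and Mir15a, repressors of Bcl2 and cyclins from one cluster, and Mir143. Mir16-1 averaged 70136 CPM in the controls and 85052 CPM after ceramide, a log2 fold change of 0.28 that passed on p and was under the fold threshold (adjusted p = 0.038, edgeR). Mir15a (log2 fold change 0.11) and Mir143 (-0.28) did not pass on p. The median log2 fold change of the 11 rows was -0.31.

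A further list held 15 miRNAs listed as targeting p53 or its regulators. Of these 14 had a row and 13 were tested. Of the 13 tested, 6 were called lower, none higher and 7 were not called, where 8.37% of all tested rows were called lower. The lists had been drawn up with earlier results of these libraries known, so their counts are a description. Of those called, Mir25, Mir30d, Mir33 and Mir125a have p53 mRNA among their known targets. Mir25 fell from 24578 to 15968 CPM (log2 fold change -0.62), Mir30d from 4373 to 2752 CPM (-0.67), Mir125a from 7790 to 4673 CPM (-0.74) and Mir33 from 102 to 67.2 CPM (-0.63). The other 2 were Mir221 (-1.20, adjusted p = 0.0018) and Mir222 (-0.98, adjusted p = 0.0026, both edgeR), which repress the cell cycle inhibitor p27. They were counted as the list was drawn up, and their link to p53 was not examined here. Mir125b-1 and Mir125b-2, the most abundant of this list and also repressors of p53, had log2 fold changes of -0.14 each and were not called (adjusted p = 0.28, edgeR). The median of the list was -0.14, nearer to zero than its called rows, and the 4 rows of the miR-29 family, named after their values were seen, lay between -0.07 and 0.02.

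Markers of the labelled cell type were present at unequal levels. Of 17 neuronal symbols 13 had a row, none at 0, and 3 of the 13 (Mir153, Mir128-2 and Mir138-1) were called lower, where 8.37% of all tested rows were. Their summed level was 21408 to 22617 CPM in control and 19976 to 24826 CPM in ceramide libraries. The rows of miR-124, the most neuron-restricted miRNA, held 19.03 to 20.96 CPM in the control and 14.3 to 14.9 CPM in the ceramide libraries. A separation of this kind, with ceramide lower, held for 25.1% of all tested rows. The 3 miR-124 rows had nearly the same counts (160, 159 and 159), and none was called (adjusted p = 0.16, 0.14 and 0.14, edgeR). Other neuronal rows lay on the other side of zero without being called, with log2 fold changes of 0.46 for Mir218-2, 0.24 for Mir137 and 0.14 for Mir9-2 and Mir9-3. Of the 13 rows 9 were negative, the nearly identical miR-124 rows among them. The 7 rows of blood and serum miRNAs, none at 0, summed to 412 to 449 CPM in control and 400 to 446 CPM in ceramide libraries. These ranges overlapped, and the largest part of the sum came from Mir486 (log2 fold change -0.26). Of the 7 rows 5 were positive, with a median log2 fold change of 0.39. Mir223 (0.58), Mir142b (0.40) and Mir122 (0.39) were higher in every ceramide library than in any control, and Mir150 (-0.37) was lower in every one. The share of all tested rows that were higher in this way was not counted. None of the 7 was called by edgeR, and these marker rows were named after their values were seen. The part of serum RNA in the level of the family was not tested.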

How the data were processed

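Exosomal small RNA of 3 control and 3 ceramide libraries was analysed (QIAseq miRNA kit). The authors trimmed reads with cutadapt 1.15, aligned them to GRCm38 with STAR 2.5.3a and assigned them to GENCODE miRNA genes; the deposited values are raw counts per hairpin gene. Use of strand, of molecular identifiers and the handling of reads with several alignments are not given in the sources used here, so counts may be reads or molecules. Intervals of fold changes include the spread between libraries. Names and coordinates came from GENCODE M21, which matched 1894 of 1973 rows; sequences came from RefSeq.

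Counts were tested with the quasi-likelihood test of edgeR 4.0.16 (R 4.3.3) on TMM factors, filterByExpr and condition alone, with Benjamini-Hochberg adjustment over 418 rows. The SE is the fold change over the root of F. DESeq2 1.42.0 and limma 3.58.1 (voom) were alternatives. The procedure was tested on simulated data with independent libraries, the same dispersion for all rows and no effect of replicate number or lane. That run does not bear on these features of the data or on rows near the fold threshold. Totals of 800810 to 2760015 counts set the precision.

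Same-numbered libraries deviated together from their group means (correlations 0.59, 0.43 and 0.75 for replicates 1, 2 and 3, on log2 CPM with prior count 2). The labels do not say that the numbers pair the libraries. The main fit used condition alone, and the fit with the replicate number as a block was an alternative. Replicates differed by more than counting noise. Members and lists were chosen with earlier results of these data known. The genes named were the members, other rows with their seed, the called and the 3 most abundant rows of each p53-linked list and the 3 nearest profiles per member; the within-library ratios were added after the counts were seen, and miR-124 was named for the marker check.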

Additional observations from a re-analysis of the deposited data

How the results depend on the processing

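The alternatives were other normalizations, filters and tools, the replicate block, a lane term, adding up Mir34b and Mir34c, and leaving out each library in turn. Mir34a and Mir449c stayed negative and were not called in any of their 15 alternatives, and Mir34b stayed called in its 16, the row added up with Mir34c included. Mir449a changed sign once, to 0.11 with the lane term, where the effect rests on the lane 1 pair of libraries. Mir34c was called with library size alone (-0.67), no filter (-0.62), a filter of 10 counts in 3 libraries (-0.60), the lane term (-0.74) and the added row (-0.60), and it ranged from -0.66 to -0.54 with libraries left out; the cause was not tested. The replicate block, which takes same-numbered libraries as pairs, raised the number of called rows from 48 to 87, including all 48. It changed no call of a member (Mir34b -0.80, Mir34c -0.59, Mir34a -0.15, Mir449a -0.16). The lane term gave 29 called rows, no fold threshold 83, DESeq2 38, and leaving out libraries 28 (without control replicate 1) to 55 (without ceramide replicate 1). The split of called rows was 13 higher and 35 lower with TMM, 21 and 26 with DESeq2's size factors, 23 and 28 with upper-quartile factors, 4 and 42 with library size alone, and 38 and 49 with the block. The mean level moved by more than its SD for Mir34b in control (1084 CPM with library size alone and 1028 CPM with DESeq2's size factors) and for Mir34c with ceramide (2474 and 2608 CPM). Low counts limit Mir449c, whose 199 counts over 6 libraries leave a wide error.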
